A study of Mus musculus with 3 samples.

Results

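Transient receptor potential (TRP) cation channels were followed in the mouse choroid plexus epithelium (CPE), the single cell layer that covers the choroid plexus and secretes cerebrospinal fluid. The members were the 9 genes Trpv4, Trpv2, Trpm1, Trpm3, Trpm4, Trpm7, Trpc1, Mcoln1 and Pkd2, chosen with earlier results of these data known. Every probe that carried one of these names in the scanner files was used: 19 of 41174 probes, and 9 of 19694 genes with a symbol. The CPE was laser dissected from frozen brain sections of 3 healthy adult C57BL/6 mice, and its amplified RNA carried the red dye Cy5. Each mouse was hybridised on its own Agilent 44K array against 1 common reference, RNA made from choroid and retinal pigment epithelium (RPE) of C57BL/6 eyes, which carried the green dye Cy3. Dyes were not swapped, so a preference of a probe for 1 dye is part of each ratio, and the reference is a single RNA whose own animal-to-animal spread was not measured. The reference is a mixed eye tissue, not a pure cell type, and the CPE is what the laser cut out.

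TRP channels are tetramers of subunits with a pore that lets sodium, calcium and in some cases magnesium through. The vanilloid (TRPV) and melastatin (TRPM) channels answer to heat, swelling, lipids or intracellular ions, the canonical (TRPC) channels act downstream of receptors that release calcium from stores, the mucolipins work in endosomes and lysosomes, and polycystin-2 works in the primary cilium and the endoplasmic reticulum. In the choroid plexus, TRPV4 is known as a channel of the membrane that faces the cerebrospinal fluid and is linked to fluid secretion.

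A pair of members also carries small RNAs. By their coordinates in RefSeq (GRCm38.p6), Trpm3 holds the microRNA miR-204 and Trpm1 its close relative miR-211, each on the strand of its host gene. The mature 5p forms are shown because they lie inside a member called higher and a member called lower in the CPE, with the seed (bases 2 to 8) in capitals.
mmu-miR-204-5p, within Trpm3, chr19:22750610-22750631, plus strand: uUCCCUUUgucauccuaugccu
mmu-miR-211-5p, within Trpm1, chr7:64205831-64205852, plus strand: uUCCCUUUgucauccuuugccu
The seeds were identical, and the mature sequences were the same at 21 of 22 positions. Trpm1 also spans the entry of miR-6416, on the opposite strand, and no other member spanned a microRNA of that table. The microRNAs themselves were not measured on these arrays, and the host probes say nothing of their amount.

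Promoters, taken as the 300 bases from 250 before to 50 after a RefSeq start, were on hand for 8 of the 9 members, 12 promoters in all. They were searched on both strands for the letters CACGTG, the palindromic E-box that MITF and TFEB family factors are known to bind, and CATGTG, a related E-box. MITF is a known regulator of Trpm1 in pigment cells, and TFEB of lysosomal genes such as Mcoln1. CACGTG was found in 3 of these 12 promoters, 1 each of Trpm1, Trpm7 and Mcoln1, against 7.15% of 32851 RefSeq promoters. CATGTG was found in both promoters of Trpm1 and in no other of the 12, against 14.2% of all. The promoters of Mcoln1 and of the downstream Trpm1 start are shown because these genes were called in opposite directions. Capitals mark the E-boxes, of which the Mcoln1 promoter holds 2 of the form CACGTG, seen in 0.594% of all promoters. The promoter of Trpm7, a member that was not called, also holds 2.
Mcoln1 promoter, GRCm38.p6, chr8:3500269-3500568, plus strand: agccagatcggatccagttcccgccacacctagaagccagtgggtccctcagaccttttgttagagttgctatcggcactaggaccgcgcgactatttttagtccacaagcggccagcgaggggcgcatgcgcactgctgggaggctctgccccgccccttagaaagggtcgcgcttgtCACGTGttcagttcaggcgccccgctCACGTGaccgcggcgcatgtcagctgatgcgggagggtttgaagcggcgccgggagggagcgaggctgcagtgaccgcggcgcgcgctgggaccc
Trpm1 promoter, downstream start, GRCm38.p6, chr7:64185209-64185508, plus strand: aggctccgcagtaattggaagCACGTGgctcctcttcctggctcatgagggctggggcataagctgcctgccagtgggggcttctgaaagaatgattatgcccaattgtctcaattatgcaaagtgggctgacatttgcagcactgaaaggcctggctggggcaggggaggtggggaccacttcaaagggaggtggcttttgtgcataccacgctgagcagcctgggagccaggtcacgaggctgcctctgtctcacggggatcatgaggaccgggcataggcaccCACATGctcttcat
A match of letters is a description of the window, not a measured site.

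Of the 19 member probes, 17 passed the signal filter, with a flag well above background in 1 or both channels of every array, and were tested on their log2 ratio of CPE over reference with limma, fitted on 25841 probes, with Benjamini-Hochberg adjustment over all of them. A probe was called at 2-fold or more with an adjusted p below 0.05. Of these 17 probes, 5 were higher and 2 lower in the CPE, and 10 were not called. Over all tested probes, 7.09% were higher and 10.2% lower. By gene, a probe was higher in 4 of the 9 members (Trpv4, Trpm3, Trpm4 and Mcoln1), against 10% of 14772 genes, and lower in 2 (Trpm1 and Trpc1), against 13.0%. Because earlier results were known when the members were chosen, these shares are a description and not a test. The median log2 ratio of the tested member probes was 0.17, and that of all tested probes was -0.04. Where each array was centred on its median in place of loess, the median over all probes became 0.09, the higher share of all calls went from 41.1% to 67.0%, and 6 member probes were called higher and 2 lower. None of the 19 probes was saturated in either channel on any array.

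**Figure D1:**
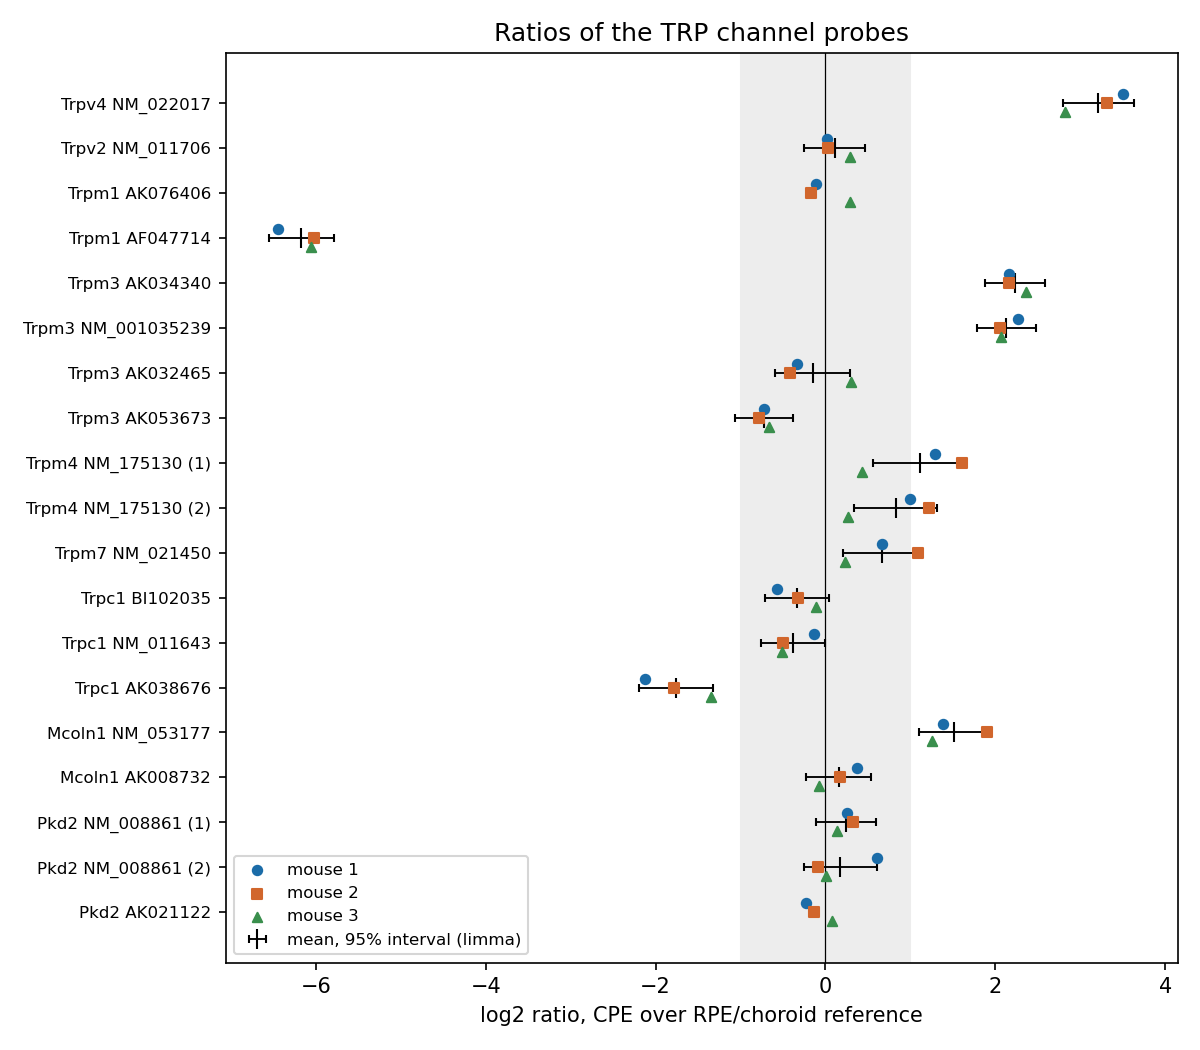
Log2 ratio of CPE over the RPE/choroid reference for the 19 member probes, labelled by gene and accession, with (1) the probe nearer the 3′ end where 2 share an accession. Symbols are the 3 mice, bars the mean with its 95% interval for tested probes, and the grey band marks changes under 2-fold. Trpv4 lies farthest to the right at 3.21 and 1 probe of Trpm1 farthest to the left at -6.17.

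The arrays differed in brightness. The share of probes flagged as well above background in the CPE channel was 58.5% in mouse 1, 46.0% in mouse 2 and 85.6% in mouse 3, and the median intensities were 138, 103 and 682. Among the 17 tested member probes, 14 had the same sign of ratio in all 3 mice, and in 8 the lowest ratio was that of mouse 3. The labelled tissue was checked against its markers: 14 of 16 tested probes of the CPE list were higher, with a median log2 ratio of 2.33. Kl (klotho) had a log2 ratio of 5.42, Prlr (the prolactin receptor) up to 5.07 and Kcne2, a potassium channel subunit, 4.17, while Otx2, a transcription factor of both tissues, was not called at 0.14. Of the 13 tested probes of the RPE and melanocyte list, 9 were lower, with a median of -3.63. Endothelial markers gave 0 calls in 6 tested probes by limma, where 3 higher and 1 lower probe had an adjusted p under 0.05 and missed only the 2-fold limit. In the stroma list 7 of 11 probes were lower and 1 higher, and in the macrophage list 5 of 9 were lower. In bulk RNA, fewer cells of a type and less RNA per cell cannot be told apart.

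Trpv4 showed the highest ratio of the members. Its gene encodes the channel that opens on cell swelling, warmth and certain lipids. The probe for NM_022017 (mm8 chr5:114883198-114883257, minus strand) had CPE intensities of 12512, 7880 and 6344 in mouse 1, 2 and 3, against reference intensities of 541, 565 and 589 on the same arrays. Every CPE value was above every reference value. The log2 ratios were 3.50, 3.31 and 2.82, a mean of 3.21 (SE 0.18, n = 3 mice), which is 9.28-fold, with an adjusted p of 2.22e-05 by limma. Trpv4 also ranked high in the CPE itself, at percentile 98.0 of all probes, and between percentiles 97.1 and 98.4 in single mice. With median centring the mean ratio was 3.91, and leaving out 1 mouse at a time gave 3.07 to 3.41.

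Trpv2, the other vanilloid member, encodes a calcium-permeable channel known from immune and muscle cells. Its probe (NM_011706, mm8 chr11:62416313-62416372, plus strand) had CPE intensities of 611, 374 and 1738 and reference intensities of 405, 394 and 777. Here the groups overlapped, and the log2 ratios of 0.01, 0.03 and 0.29 gave a mean of 0.11, with a 95% interval from -0.25 to 0.47 and an adjusted p of 0.616 by limma. The interval lies inside the 2-fold limits. Its CPE level was moderate, at percentile 80.2.

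**Figure D2:**
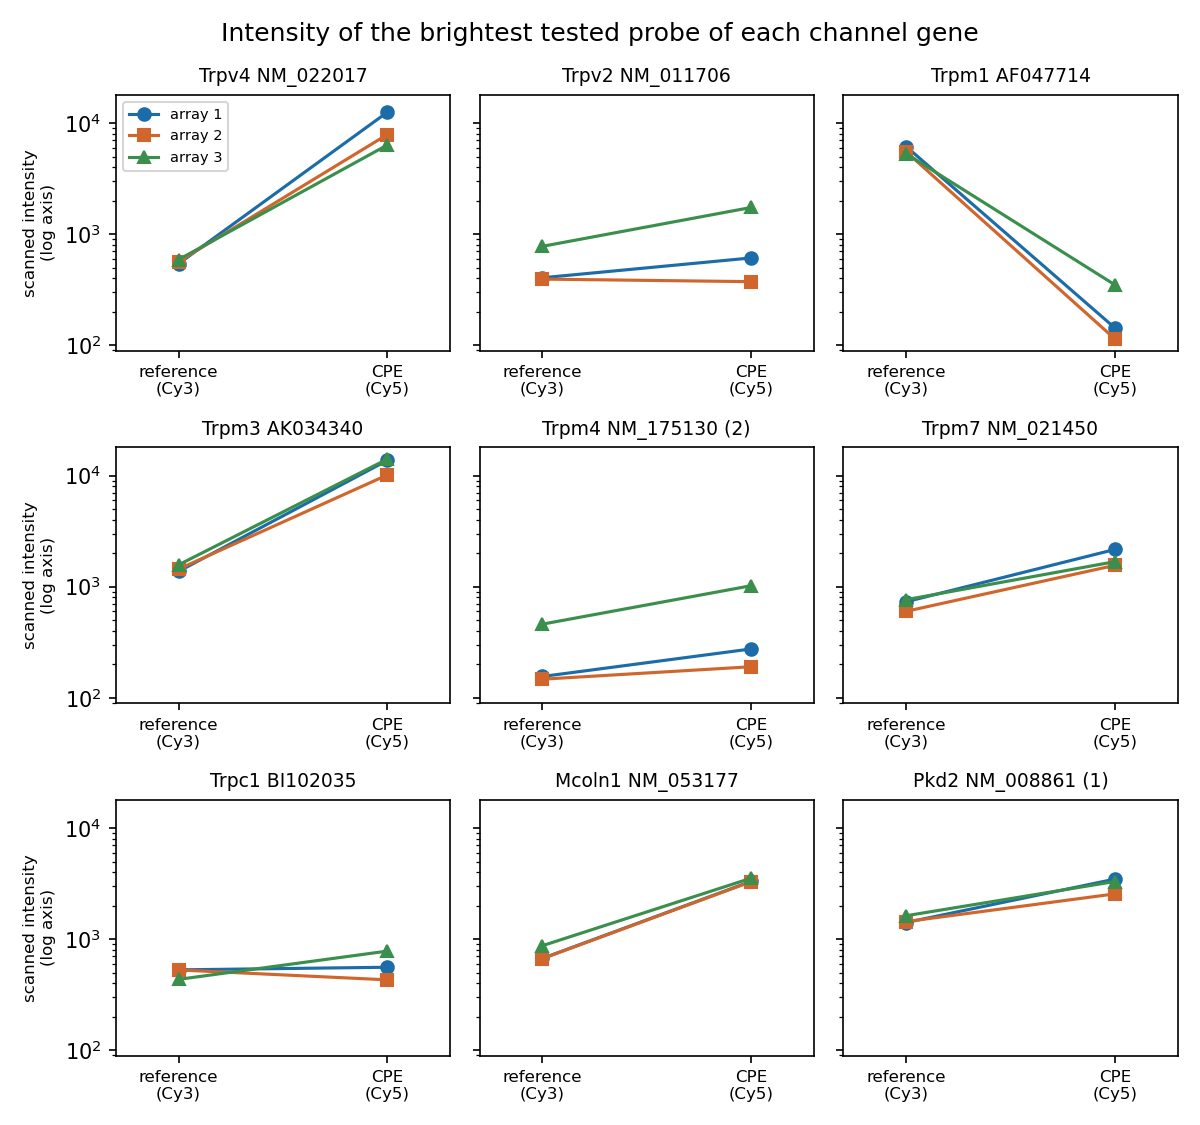
Scanned intensity (log axis, not background corrected) of the brightest tested probe of each member, in the Cy3 reference channel and the Cy5 CPE channel of the same array. Lines join the channels of 1 array. Trpv4, Trpm3 and Mcoln1 rise from reference to CPE on all 3 arrays, and Trpm1 falls on all 3. The plotted probes of Trpm4, Trpm7 and Pkd2 also rise on all 3 arrays, and these probes were not called. For Trpm4 this is the probe farther from the 3′ end.

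The melastatin members held the widest range of ratios. Of their 8 tested probes, 3 were higher, 1 was lower and 4 were not called. Trpm3, a channel opened by heat and by the steroid pregnenolone sulfate, was measured by 4 probes along chromosome 19 of mm8. The 2 probes nearest the 3′ end were higher in the CPE. The probe for AK034340 (chr19:23062129-23062188) had CPE intensities of 13695, 10128 and 14072 against 1371, 1438 and 1570 in the reference. Its log2 ratios of 2.17, 2.16 and 2.36 gave a mean of 2.23 (SE 0.15), 4.69-fold, adjusted p 4.83e-05 by limma. The probe for NM_001035239 (chr19:23056487-23056546) had 3316, 1967 and 3266 in the CPE against 394, 408 and 509, and its log2 ratio of 2.13 (SE 0.15) was 4.38-fold with an adjusted p of 5.83e-05 by limma. All CPE values of these probes lay above all reference values, and both probes ranked in the high class, at percentiles 98.8 and 93.5.

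The Trpm3 probes farther upstream did not follow. The probe for AK032465 (chr19:22953689-22953748), which lies 108440 bases upstream of the 3′-most probe, had log2 ratios of -0.34, -0.42 and 0.30. Its mean was -0.15, with a 95% interval of -0.59 to 0.29 and an adjusted p of 0.56 by limma, and it was well above background in the CPE on 2 of 3 arrays. The probe for AK053673 (chr19:22926473-22926532), 135656 bases upstream, gave -0.73, -0.78 and -0.67, a mean of -0.72 (SE 0.15) with an adjusted p of 0.00728 by limma, under 2-fold and so not called. On each array, both 3′ probes had a higher ratio than both upstream probes, and the 95% intervals of the 2 pairs do not overlap. The difference between probes was not tested. The call for Trpm3 rests on its 3′ probes alone.

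**Figure D3:**
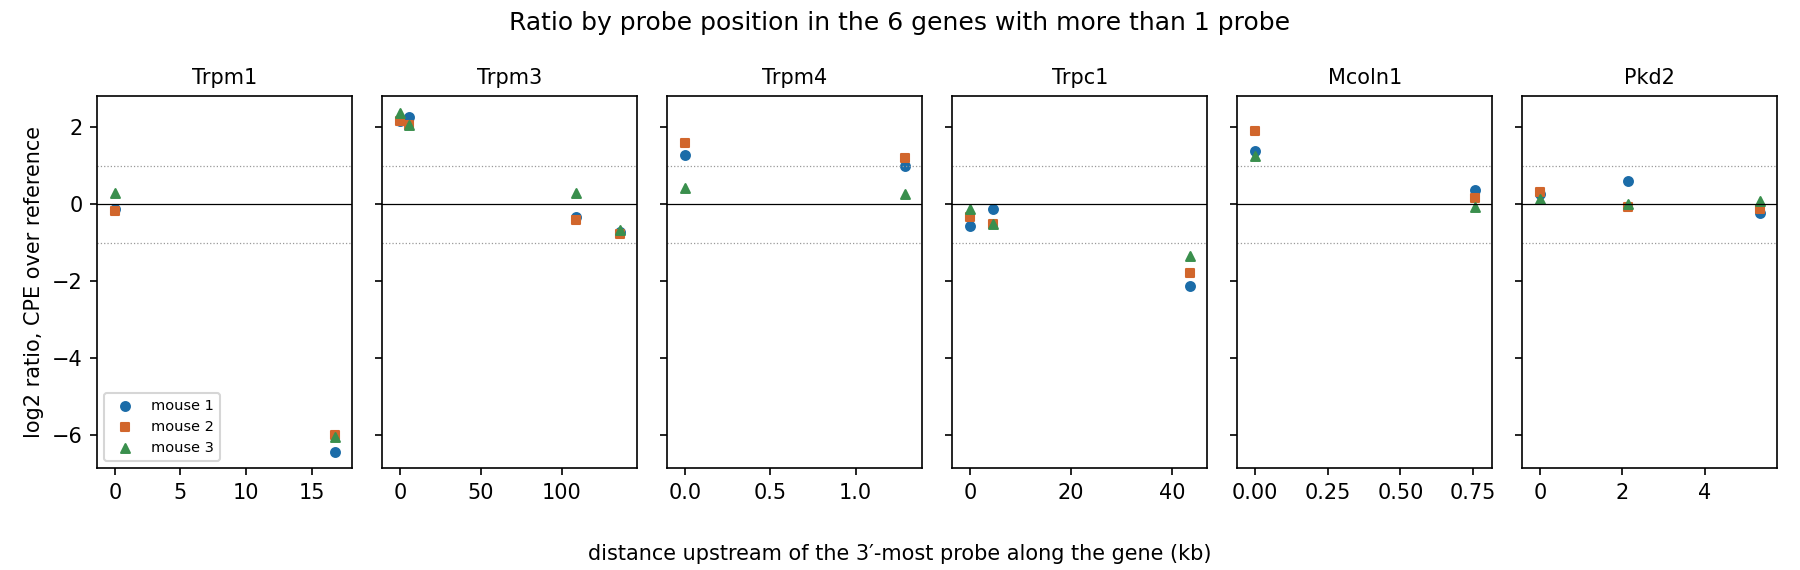
Log2 ratio of CPE over reference against the distance of a probe upstream of the 3′-most probe of its gene (kb, mm8 scanner coordinates), for the 6 members with more than 1 probe. Dotted lines mark a 2-fold change, and symbols are the 3 mice. In all 6 the most upstream probe has the lowest mean ratio, with the probes of Trpm1 and Pkd2 that were not tested included, and the part of position in the ratios was not tested.

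Trpm1, or melastatin, encodes the channel that carries the light response of retinal ON bipolar cells, and its transcript is abundant in pigment cells. Its probe for AF047714 (mm8 chr7:64103608-64103667, plus strand) had reference intensities of 6154, 5523 and 5302, against 143, 114 and 350 in the CPE. The reference values were above all CPE values on each array. The log2 ratios were -6.44, -6.02 and -6.06, a mean of -6.17 (SE 0.16) with an adjusted p of 3.94e-06 by limma, which is 72.1-fold higher in the reference. In the CPE this probe was well above background on 1 of 3 arrays, and the log2 ratio was -8.36 by the scanner software's own ratio and -5.63 with median centring. In the CPE channel it ranked in the low class, at percentile 38.6, and at 12.7 with loess before Aquantile and 22.8 in the deposited levels. The second probe, for AK076406 (chr7:64120372-64120431, 16764 bases downstream), was well above background on 2 of 3 reference arrays and 1 of 3 CPE arrays and was not tested. Its log2 ratios were -0.11, -0.18 and 0.29.

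Many markers of cells that are known to express Trpm1 were also lower, but 4 of 13 tested probes of the RPE and melanocyte list and 2 of 8 of the ON bipolar list were not called. The RPE and melanocyte genes Tyrp1 and Rpe65 had log2 ratios of -8.17 and -6.71, and the array medians of that list ran from -3.93 to -2.62. Of the 8 tested probes of ON bipolar markers, 6 were lower, with a median of -1.44. The lowest ratio of the 8 was -2.50. Among the lower probes, Pcp2 was at -2.17, and Isl1 was not well above background in the CPE on any array. The ON bipolar marker Rgs11 went the other way, at 0.84 (adjusted p 0.017 by limma), under 2-fold. The photoreceptor genes Nrl and Prph2 stood at -6.37 and -5.46, and 6 of 6 photoreceptor probes were lower. Mitf, which encodes a factor known to bind the letters CACGTG, was not called by either of its probes, at 0.27 and 0.44. Its binding to any member promoter was not measured. The part of these cell types in the Trpm1 ratio was not tested.

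Trpm4, a channel that is opened by calcium but passes only sodium and potassium, had 2 probes for NM_175130. At the one nearer the 3′ end (mm8 chr7:45171599-45171658, minus strand), CPE intensities were 414, 290 and 673 against 163, 152 and 307 in the reference, with CPE above reference on every array but with overlapping groups. The log2 ratios of 1.29, 1.61 and 0.43 gave 1.11 (SE 0.23), 2.15-fold, adjusted p 0.00818 by limma. The other probe (chr7:45172887-45173026) gave 1.00, 1.21 and 0.26, a mean of 0.83 (SE 0.21, adjusted p 0.0171 by limma), which stayed under 2-fold. Both probes had their lowest ratio in mouse 3. The call of the first probe was lost without mouse 2, at 0.86, without background correction, at 0.96, and in the test against 2-fold. The second was called without mouse 3, at 1.11, with a background offset of 10, at 1.10, and by the scanner software's ratio, at 1.86. Both probes were moderate in the CPE, at percentiles 68.7 and 68.6.

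Trpm7 encodes a channel fused to a kinase, which takes part in magnesium uptake. Its probe for NM_021450 (mm8 chr2:126483337-126483396, minus strand) had 2162, 1555 and 1679 in the CPE against 731, 600 and 763 in the reference, without overlap. After loess, the log2 ratios were 0.67, 1.09 and 0.23 and the mean was 0.66, with a 95% interval of 0.21 to 1.12 and an adjusted p of 0.0299 by limma. This was under 2-fold, and it was called with median centring, at 1.26. The probe ranked at percentile 89.8, just below the limit of the high class, and above that limit in mouse 2 (91.4).

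Trpc1, which forms receptor-operated channels with other TRPC subunits, had 3 probes on the minus strand of chromosome 9. The probe nearest the 3′ end, for BI102035 (mm8 chr9:95514886-95514945), had log2 ratios of -0.57, -0.32 and -0.11. Its mean was -0.33, with a 95% interval of -0.71 to 0.04 and an adjusted p of 0.143 by limma, and it turned to 0.13 with median centring. The probe for NM_011643 (chr9:95519543-95519602) gave a mean of -0.38, with a 95% interval of -0.76 to -0.01 and an adjusted p of 0.099 by limma. Its CPE signal was well above background on 2 of 3 arrays. Neither of these probes was called. The most upstream probe, for AK038676 (chr9:95558407-95558466, 43521 bases from the first), had CPE intensities of 103, 102 and 552 against 405, 443 and 560, which overlap through mouse 3. Its log2 ratios of -2.12, -1.79 and -1.35 gave -1.76 (SE 0.19), 3.38-fold higher in the reference, adjusted p 3.78e-04 by limma. Its CPE signal was well above background on 1 of 3 arrays, and the scanner software's ratio put it at -3.12. The call for Trpc1 rests on this 1 of 3 probes.

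Mcoln1 encodes mucolipin-1, the calcium and iron channel of lysosomes that is lost in mucolipidosis type IV. Its probe for NM_053177 (mm8 chr8:3515110-3515169, plus strand) had CPE intensities of 3314, 3290 and 3538 against 671, 667 and 873 in the reference, and the groups did not overlap. The log2 ratios were 1.39, 1.91 and 1.26, a mean of 1.52 (SE 0.18), 2.86-fold, with an adjusted p of 6.15e-04 by limma. It was in the high class, at percentile 94.7. The call was lost when the change was tested against 2-fold rather than against 0. The second probe, for AK008732 (chr8:3514354-3514413), 756 bases upstream, had log2 ratios of 0.37, 0.17 and -0.08. Its mean was 0.15, with a 95% interval of -0.22 to 0.53 and an adjusted p of 0.491 by limma, and -0.05 with median centring. The CPE signal of this second probe was well above background on 2 of 3 arrays.

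Pkd2 encodes polycystin-2, the partner of polycystin-1 and a gene of polycystic kidney disease. The probe for NM_008861 nearest the 3′ end (mm8 chr5:104745945-104746004, plus strand) was bright in both tissues, with 3471, 2557 and 3304 in the CPE against 1412, 1439 and 1625. These scanned values did not overlap, but after normalization the log2 ratios were 0.25, 0.33 and 0.14. Their mean of 0.24 had a 95% interval of -0.11 to 0.59 and an adjusted p of 0.247 by limma. It ranked at percentile 94.1 in the CPE, so Pkd2 was in the high class without a called difference from the reference. A second probe for the same accession (chr5:104743812-104743871) gave 0.60, -0.08 and 0.00, with a mean of 0.17 and a 95% interval of -0.26 to 0.60. Without mouse 1 its mean was -0.04, and its CPE signal was well above background on 2 of 3 arrays. The probe for AK021122 (chr5:104740614-104740673) was not well above background in either channel on any array and was not tested.

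**Figure D4:**
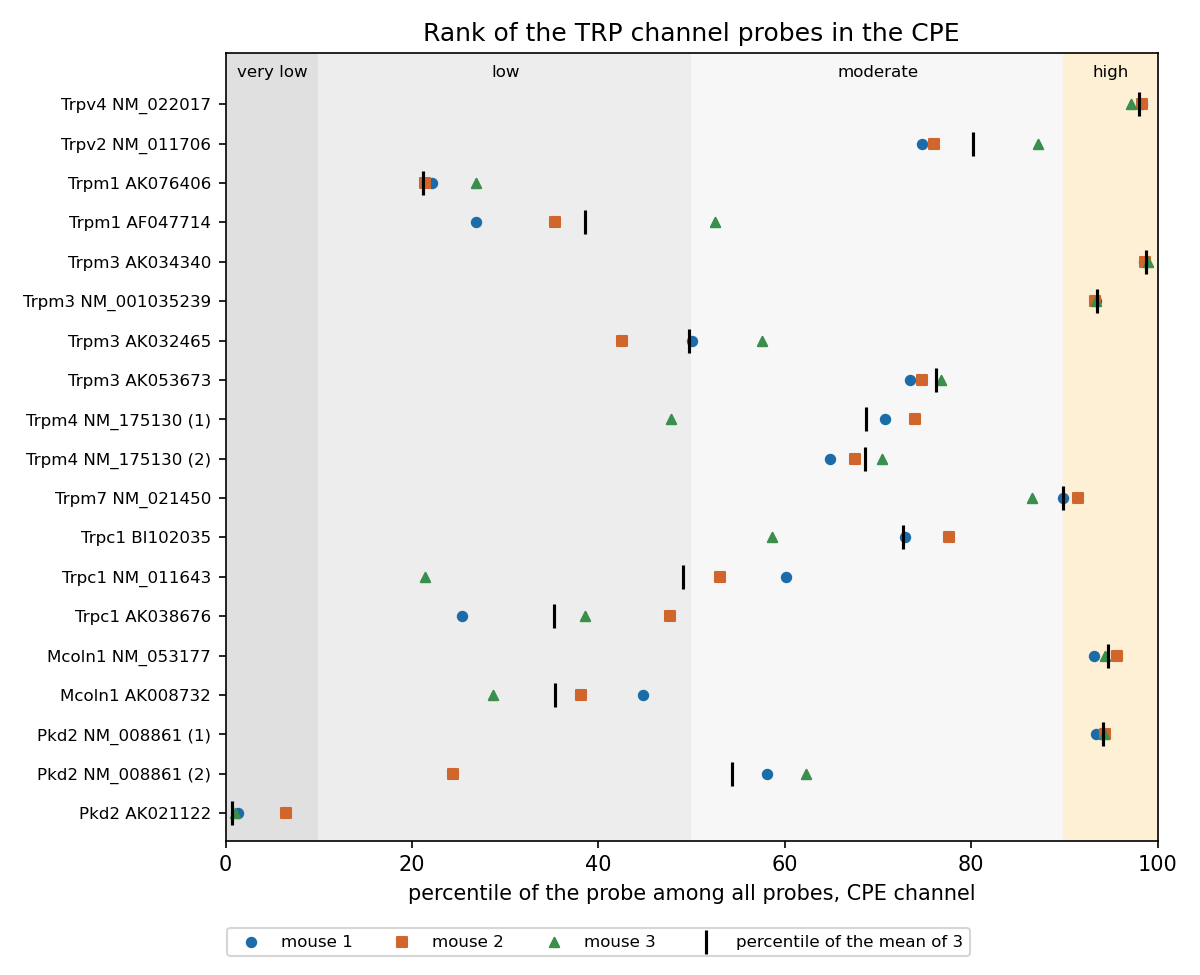
Percentile of each member probe among all probes in the CPE channel, with symbols for the 3 mice and a bar for the percentile of their mean. Shading marks the very low, low, moderate and high classes. The 5 probes in the high class belong to Trpv4, Trpm3 (2 probes), Mcoln1 and Pkd2.

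By rank in the CPE, 5 member probes of 4 genes fell in the high class, above the 90th percentile, which holds 10% of all probes by construction. Another 7 were moderate, from the 50th to the 90th percentile, 6 were low and 1 was very low. The rank says where a probe lies on the array and does not order the genes by amount, because probes differ in how well they hybridise. In the high class all 5 probes were above the 90th percentile in each of the 3 mice. The ranks of dimmer probes spread more: the second Pkd2 probe lay at percentiles 58.0, 24.4 and 62.3, and the Trpc1 probe for NM_011643 at percentiles 60.2, 53.0 and 21.4. With the ranking limited to probes that passed the background flag on every CPE array, 2 member probes stayed in the high class, Trpv4 and the Trpm3 probe for AK034340.

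Few probes of the rest of the TRP family passed the signal filter. Of 19 further family genes, 18 had a probe, and of their 28 probes 9 were tested. By limma 0 were higher, with 1 higher at an unadjusted p under 0.05, and 3 probes of 2 genes were lower. Mcoln3, mucolipin-3, had reference intensities of 1619, 1652 and 1445 against 243, 234 and 572 in the CPE at its probe for AK033008 (mm8 chr3:146078707-146078766, plus strand). Its log2 ratios of -3.55, -3.07 and -2.86 gave -3.16 (SE 0.18), 8.91-fold higher in the reference, adjusted p 2.41e-05 by limma. Its probe for NM_134160 was at -1.05 (adjusted p 0.00402 by limma), with a CPE signal well above background on 1 of 3 arrays. The call of this second probe was lost without mouse 1, without background correction and in the test against 2-fold. The mucolipins Mcoln1, by its probe for NM_053177, and Mcoln3 differed from the reference in opposite directions. Mcoln2 was at -0.0036 with a 95% interval of -0.36 to 0.35. Its probe had CPE intensities of 91, 90 and 571 against 133, 130 and 322, well above background in the CPE on 1 of 3 arrays. At so dim a signal the ratio cannot tell whether the levels were equal. Trpc2, a pheromone-sensing channel, was at -1.07 (adjusted p 0.00207 by limma) at its probe for AK030267, and that call was lost without mouse 1, with median centring, without background correction and in the test against 2-fold. Pkd2l2, at 0.47 (adjusted p 0.0535 by limma), was well above background in the CPE on all 3 arrays without a call. By the scanner software's ratio this probe was called higher, at 1.51. Trpc4, at -1.10, and Trpc7, at -1.64, were called lower by that ratio alone. Their CPE signals were well above background on 1 and 0 of 3 arrays.

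Genes that work with the members were looked at by list. Polycystin-1 (Pkd1), the partner of polycystin-2, had log2 ratios of 1.04, 0.78 and 0.28, a mean of 0.70 with an adjusted p of 0.0208 by limma, under 2-fold. In the list of store-operated calcium entry and inositol trisphosphate (IP3) receptors, 5 of 13 tested probes were higher and 2 lower. Itpr1, the IP3 receptor that releases calcium from the endoplasmic reticulum, was higher by both its probes, at 1.81 (SE 0.15) and 2.10 (SE 0.15), while Itpr2 was lower by 1 of its 4 tested probes, at -1.35, and Itpr3 was lower at -1.72 (SE 0.17). The pore subunits Orai1 and Orai2 were higher, at 1.33 (SE 0.19) and 1.69 (SE 0.23), and the calcium sensor Stim2 was higher by 1 of 2 probes, at 1.11 (SE 0.18). Without mouse 2 that probe lost its call and the other was called instead, and neither was called in the test against 2-fold. In that test Orai1, Orai2 and Itpr2 also lost their calls, while both Itpr1 probes and Itpr3 kept theirs. Of the channels that couple to TRPV4, Lrrc8a, a subunit of the volume-regulated anion channel, was higher at 1.04 (SE 0.17), in 1 of 5 tested probes. That call was lost without mouse 1 and in the test against 2-fold. By an adjusted p under 0.05 in limma alone, 3 probes of this list were higher and 1 lower, and the lowest ratio was -0.92. Ano1 was called lower with array weights (-1.01), an offset of 10 (-1.09), the scanner software's ratio (-1.45) and without mouse 3 (-1.02). Ano6 was called higher with array weights, median centring, the scanner software's ratio and without mouse 2, not always by the same probe. Kcnn4 was called higher by the scanner software's ratio. Among the regulators of mucolipins, 0 of 4 tested probes were called by limma, but Pikfyve, which makes the lipid that opens mucolipins, was at 0.96 (adjusted p 0.00429 by limma), just under 2-fold. It was called higher with median centring, with an offset of 10, by the scanner software's ratio, with array weights and without mouse 2. Median centring raised the number of partner genes called higher from 5 to 10 and left 1 called lower, Itpr3, so that the Itpr2 call was lost.

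**Figure D5:**
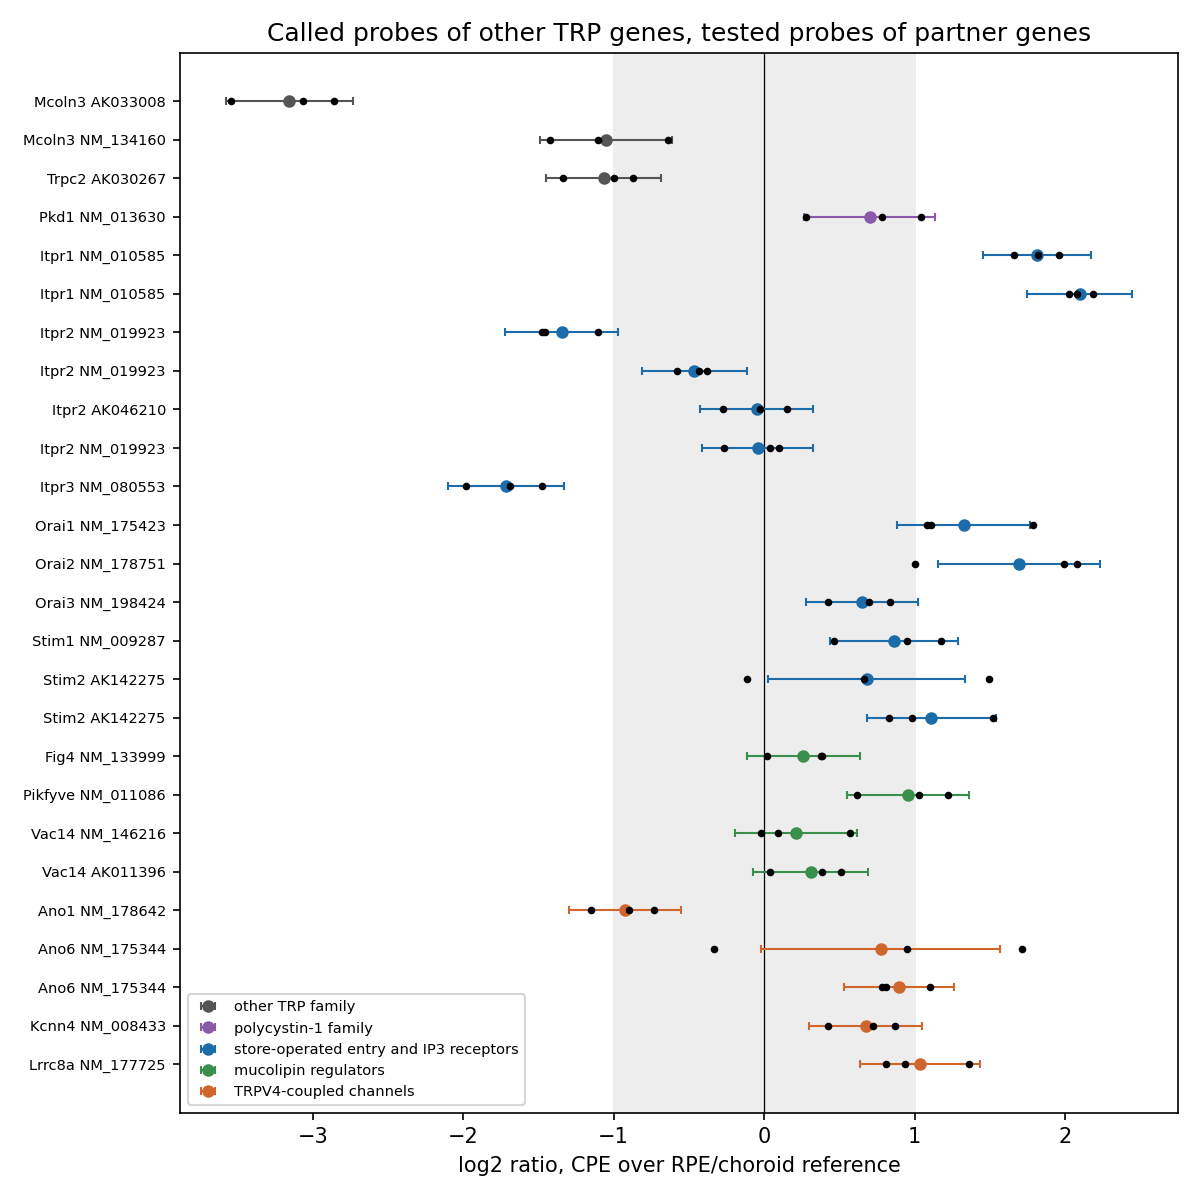
Log2 ratio of CPE over reference for the called probes of the other TRP genes and all tested probes of the partner lists. Large points and bars are the mean and its 95% interval, small black points the 3 mice, and the grey band marks changes under 2-fold. Itpr1 lies farthest right, and the Mcoln3 probe for AK033008 farthest left at -3.16.

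The genes nearest to a member in their 3 log2 ratios were found by Euclidean distance over the 17945 probes whose signal passed the background flag in each channel of every array. For Trpv4, the member probe with the highest mean ratio in that set, they were Wdr86, Smim22, Steap1, Vcam1 (a vascular cell adhesion molecule) and Efcab1, at distances of 0.222 to 0.339. Their mean log2 ratios ran from 3.09 for Smim22 to 3.40 for Efcab1. For the Trpm3 probe for AK053673, the lowest in that set, they were Wdr77, Ddx1, Ddb2, Shfl and Sprr2a1, at distances of 0.0447 to 0.0777. With 3 arrays of 1 group, such likeness describes ratio size and the pattern over 3 mice.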

How the data were processed

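The authors scanned each 2-colour array with Agilent Feature Extraction 9.5.3.1. The deposited scanner files hold the mean and background intensity of each spot in both channels, flags, and, per the file headers, the log10 ratio of processed red over green. A deposited table holds log2 levels of the CPE channel, which the authors normalized between arrays with Aquantile (R 2.14.0, limma). Its rank correlation with the red channel was 0.998, 0.998 and 1.000 on the 3 arrays.

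Here, R 4.3.3 and limma 3.58.1 were used. Intensities were background corrected (normexp, offset 50) and normalized by loess within each array, with control and outlier spots left out. Spots of 1 probe were averaged, and the mean log2 ratio of the 3 arrays was tested against 0 with lmFit and eBayes. No reference replicate exists, so the p-values measure the spread between the 3 CPE samples, which the labels give as 3 mice. For expression classes, uncorrected log2 red intensities were normalized with Aquantile, averaged and ranked over all probes. Their number of 3 limits the precision.

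Members were matched by the name in the scanner file. List genes were matched through RefSeq accessions, symbols or unique synonyms, which named 33026 probes (80.2%). Coordinates are those of the scanner files (mm8). Promoters and microRNAs are from RefSeq on GRCm38.p6, and the builds were not mixed. Text names all member probes, and family and partner genes past the threshold. It also names family genes above background, the 5 nearest genes and some markers of the CPE, RPE and melanocyte, ON bipolar and photoreceptor lists. No single gene of the endothelial, stroma and macrophage lists is named. Pkd1, Otx2, Mitf, Mcoln2, Trpc4, Trpc7, Rgs11, Pikfyve, Ano1, Ano6 and Kcnn4 were added after their values were seen. An item of the family list is not reported here. The members and lists were chosen with earlier results of these data known. Alternatives changed the background correction, the normalization, the filter, the weights, the test, the probe ranked and the replicates.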

Additional observations from a re-analysis of the deposited data

How the results depend on the processing

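Of 181 alternative values of the member ratios, 169 kept their direction and their side of the threshold, 4 lost a call, 4 gained one and 4 changed sign without a call. The alternatives of the filter and the test against 2-fold reuse the main ratios, so in them only a call could change, not a direction. The sign changes were the Trpc1 probe for BI102035, at 0.13 with median centring, the Mcoln1 probe for AK008732, at -0.048 with median centring, and the Pkd2 probe A_51_P419613, at -0.078 by the scanner log ratio and from -0.040 to 0.30 when 1 mouse was left out. The calls of Trpv4, of both 3′ Trpm3 probes, of Trpm1 and of the Trpc1 probe for AK038676 held in every alternative in which these probes were tested. With probes required to be well above background in both channels, 0 member probes were lower, because the CPE channel of both lower probes was dim and they were not tested. With the test against 2-fold (treat), 3 member probes were higher. Without 1 mouse, 4 to 6 were higher and 2 lower. With the brightest probe of a gene alone, 1 member gene was lower, Trpm1. Of other TRP genes, 1 was lower with median centring, and 1 to 2 without 1 mouse (1 without mouse 1). By the scanner software's ratio, Pkd2l2 was called higher, and Trpc4 and Trpc7 were called lower besides Mcoln3 and Trpc2. Of partner genes, 10 were higher and 1 lower with median centring, and 4 to 8 were higher without 1 mouse (8 without mouse 2, 4 without mouse 1). The leave-one-out fits of other TRP and partner genes, the scanner ratio of other TRP genes and the partner alternatives were chosen after seeing the data. When only probes above background were ranked, 2 member probes were in the high class. Where a cause is not given, the cause was not tested. Each ratio pairs the CPE with the reference on the same array, and the arrays form 1 group, so no groups of mice were compared. Dim CPE signal limits the sizes for Trpm1 and Trpc1. It also limits the ratios of the Trpm3, Trpc1, Mcoln1 and Pkd2 probes that were well above background in the CPE on 2 of 3 arrays.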
